A study of Mus musculus with 4 samples.

Results

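The genes described here are the 93 nuclear protein-coding genes whose symbols mark them as parts of the oxidative phosphorylation machinery, out of 21728 protein-coding genes on the autosomes and X in GENCODE release M21. They were chosen by name: all genes starting with Nduf, Uqcr or Atp5, the 4 genes Sdha to Sdhd, and the cytochrome oxidase genes from Cox4 to Cox8. DNase-seq, in which the enzyme DNase I cuts accessible chromatin and the cut sites are then read by sequencing, had been run on acute myeloid leukemia cells of the mouse strain C57BL/6J that the labels class as differentiated in vitro. All 4 libraries belong to this 1 condition, with 2 technical libraries for each of 2 biological replicates, and the labels tie both replicates to the same donor record. Age, developmental stage and sex were not recorded there, and no treatment, genetic alteration or untreated control is named. The authors supplied 1 list of peaks (windows of 150 bp with a score) and 1 list of hotspots (wider regions with a q value) for each biological replicate, so every gene has at most 1 value per replicate for a given site, with no error of its own. No test was made: each replicate is a single list and genes are not replicates, so the values below are descriptions set beside the same values for all protein-coding genes.

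Oxidative phosphorylation takes place in the inner mitochondrial membrane. Complexes I and II pass electrons from NADH and succinate to ubiquinone, complex III passes them on to cytochrome c, complex IV hands them to oxygen, and complex V, the ATP synthase, uses the proton gradient that complexes I, III and IV build. A few core subunits are encoded in the mitochondrial genome and all the others in the nucleus, and the nuclear factors NRF1, GABP (an ETS factor) and YY1 are known regulators of many of these nuclear genes. Several complex IV subunits come as a pair, with 1 gene used in most tissues and another in heart and skeletal muscle, lung or testis.

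A promoter is taken here as the stretch within 1 kb of any annotated transcription start of a gene. A promoter peak is shared when a peak of replicate 1 overlaps a peak of replicate 2 by at least 1 bp. Where a gene had several shared peaks, the one with the highest mean rank stands for it. A rank is the percentage of a list with a lower score, taken at the midpoint of tied scores. The replicate 1 list held 236802 peaks and that of replicate 2 held 67564, and the depth of sequencing is unknown. Scores reached 150 in replicate 1, which is also the window width in bp, and the scores of most members crowd just under that value, so the replicate 2 scores spread the genes out more.

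Markers of the labelled lineage had promoter peaks, most of them weak in replicate 2. Of 10 myeloid genes, 9 had a shared promoter peak, against 58.2% of all protein-coding genes, and Elane had a peak in replicate 1 alone. The median scores of the 9 were 139 in replicate 1 and 48 in replicate 2, against 145 and 75 over all genes with a shared promoter peak. In replicate 2, Cebpa scored 97, Spi1 94, and the others 40 to 68. The peak centre was within 100 bp of the nearest annotated start at 5 of the 9, against 67.2% of all genes with a shared promoter peak. The peaks of Mpo and Csf1r lay 9170 and 5213 bp inside the gene, measured from its 5′ end. None of the 4 T cell markers and none of the 4 B cell markers had a shared promoter peak. Of the muscle markers, 3 of 10 had a shared promoter peak (Ckm, Tnnt3 and Myl2), and of the testis germ cell markers 1 of 10 (Zpbp). The part of any other cell type in the results below was not tested.

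Nearly the whole oxidative phosphorylation machinery had accessible promoters in both replicates. A shared promoter peak was present at 87 of the 93 genes (93.5%), against 58.2% of all protein-coding genes. In replicate 1 alone, 2 more members had a promoter peak, a state found at 12.5% of all genes. The last 4 had none in either replicate, as did 28.8% of all genes. All 6 of these genes were grouped here as tissue-restricted isoforms, namely Cox4i2, Cox6a2, Cox7b2, Cox8b, Cox8c and Ndufa4l2, the last without a named tissue. Every one of the 85 members that is not a tissue-restricted isoform had a shared promoter peak. The hotspot lists gave the same count, with a hotspot in both lists at 87 promoters (58.8% of all genes). A hotspot at the −log10 q ceiling of 100 lay at 93.5% of the members' promoters in replicate 2, against 48.9% of all genes.

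The shared peaks of these genes were also strong within their own lists. In replicate 1 the lowest score was 129, the median 146 and the highest 150. In replicate 2 the lowest was 48, the median 83 and the highest 113. Over all 12641 genes with a shared promoter peak the medians were 145 and 75. In replicate 1, 61 of the 87 members (70.1%) lay in the top 5% of the list, against 56.6% of all genes with a shared promoter peak. In replicate 2 the corresponding figures were 35 members (40.2%) and 28.1%. Spearman rho between the replicate 1 and replicate 2 scores was 0.65 over the 87 genes and 0.84 over all 12641, in both cases across genes that are not independent samples.

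**Figure D1:**
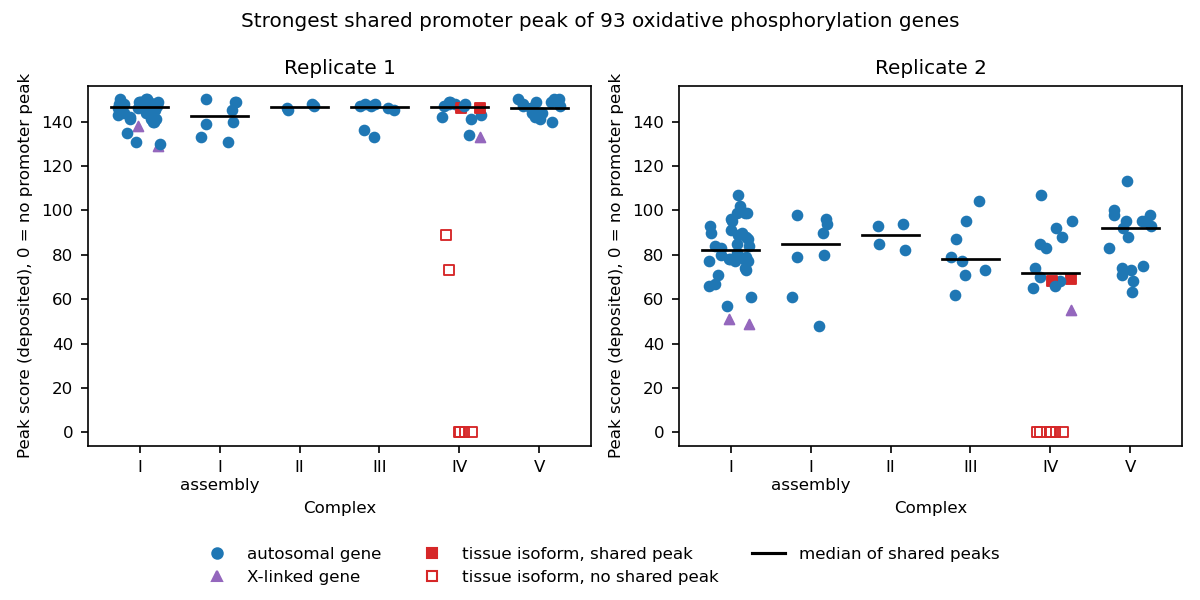
Deposited score (vertical axis) of the strongest shared promoter peak of each of the 93 genes in replicate 1 (left) and replicate 2 (right), by complex (horizontal axis, with a random sideways shift), with black lines at the medians of the shared peaks; open squares mark the 6 tissue isoforms without a shared peak, at their replicate 1 score or at 0 for no promoter peak. Replicate 1 scores crowd between 129 and 150, replicate 2 scores spread from 48 to 113, and the 3 X-linked genes lie between 49 and 55 in replicate 2.

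Complex I, the NADH dehydrogenase, is the largest of the complexes, and all of its 36 members had a shared promoter peak. The median scores were 146 in replicate 1 and 82 in replicate 2. The 7 core subunits, which carry the flavin and the iron-sulfur clusters, scored 147 to 149 and 77 to 99. The strongest promoter was that of Ndufv3, an accessory subunit of the matrix arm, with 150 and 107 at chr17:31519996-31520145. Ndufa2, another matrix arm subunit, followed with 150 and 99. At the other end stood a pair of membrane arm subunits encoded on the X chromosome, Ndufa1 with 129 and 49 and Ndufb11 with 138 and 51. The 8 assembly factors, which help build complex I and are not part of the finished enzyme, all had a shared promoter peak too. Ndufaf3 was the strongest of them, with 150 and 98, and Ndufaf1 the weakest, with 131 and 48, the lowest replicate 2 score of any member's strongest shared peak.

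Complex II, the succinate dehydrogenase, is the only complex of the chain encoded wholly in the nucleus. Sdhb, the iron-sulfur subunit, scored 148 in replicate 1 and 94 in replicate 2. Sdhc and Sdhd, the membrane anchors, scored 146 and 93, and 147 and 82. Sdha, the flavoprotein, scored 145 and 85. The 4 promoters thus spanned 145 to 148 in replicate 1 and 82 to 94 in replicate 2, and complex II is also the complex with the fewest genes.

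Complex III, the cytochrome bc1 complex, had a shared promoter peak at all 8 of its nuclear genes in the list. Its subunit cytochrome c1, encoded by Cyc1, falls outside the naming rule and scored 143 and 80. Uqcrfs1, the Rieske iron-sulfur protein, led with 146 and 104, and Uqcrq, a small subunit, followed with 148 and 95. The lowest were Uqcrb, also a small subunit, with 136 and 62, and the core protein gene Uqcrc1, with 133 and 71. Among the 17 genes of complex V the median replicate 2 score was 92, the highest of the complexes, and the replicate 1 median was 146, the same as in complex I. Atp5f1, subunit b of the peripheral stalk, scored 149 and 113, the highest replicate 2 score of any member, and Atp5d, the delta subunit of the central stalk, scored 150 and 98. The lowest were Atp5j2, a subunit of the membrane part, with 144 and 63, and Atp5g3, with 144 and 68. Atp5g1, Atp5g2 and Atp5g3 encode the same c ring subunit, and all 3 promoters had shared peaks, with replicate 2 scores of 95, 95 and 68.

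Complex IV, the cytochrome c oxidase, was the only complex with members that lacked a shared promoter peak. Of its 20 nuclear genes in the list, 14 had one. The 12 that are not tissue-restricted all did, with median scores of 147 and 78.5. Cox6a1 led with 149 and 107, and Cox8a followed with 148 and 92. Cox7b, on the X chromosome, was the lowest with 133 and 55, and Cox6c, which has no paired isoform in the list, had 134 and 68.

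The isoform pairs divided for the most part, but not wholly, by their known range of expression. All 7 broadly used isoforms had a shared promoter peak: Cox4i1, Cox6a1, Cox6b1, Cox7a2, Cox7b, Cox8a and Ndufa4. Of the 8 tissue-restricted isoforms, 2 did, Cox6b2 and Cox7a1. Cox4i2, the lung isoform of subunit 4, had a replicate 1 peak of score 89 at 62 bp from the 5′ end of the gene, where Cox4i1 had scores of 148 and 83, and the nearest replicate 2 peak lay 11582 bp away. Ndufa4l2, a paralog of Ndufa4, was grouped with the tissue-restricted isoforms without a tissue named for it. It had a replicate 1 peak of score 73 at 476 bp, while Ndufa4 had 147 and 66. The 4 genes with no promoter peak were Cox6a2 and Cox8b of heart and skeletal muscle, and Cox7b2 and Cox8c of testis. Their nearest replicate 1 peaks lay 1964, 2965, 2434 and 10715 bp from their 5′ ends. The nearest replicate 2 peak was at 2004 bp for Cox6a2 and at 2985 bp for Cox8b. For Cox8c it was at 20785 bp and for Cox7b2 at 620006 bp. Cox6a2 lies on the opposite strand within the annotated extent of Itgad, a leukocyte integrin gene, whose nearest annotated start is 2513 bp away.

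**Figure D2:**
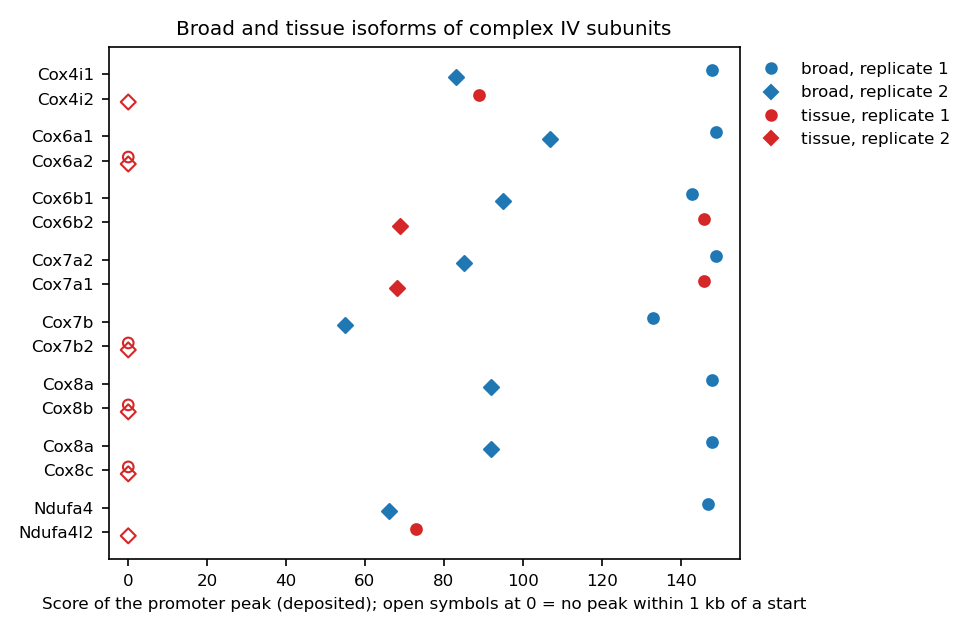
Deposited score (horizontal axis) of the promoter peak in replicate 1 (circles) and replicate 2 (diamonds) for the broad (blue) and tissue-restricted (red) isoform of each pair; open symbols at 0 mean no peak within 1 kb of a start, and Cox8a appears once for each of its partners. All 7 broad isoforms have both symbols above 0, whereas among the tissue isoforms only Cox6b2 and Cox7a1 do.

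Cox7a1, the heart and skeletal muscle isoform of subunit 7a, and Cox6b2, the testis isoform of subunit 6b, stood apart from the other tissue-restricted genes. The Cox7a1 peak, at chr7:30184016-30184165, scored 146 and 68 and occupied exactly the same window in both lists. The Cox6b2 peak, at chr7:4752996-4753145, scored 146 and 69, again in the same window in both lists. Both peaks sat at the gene's own 5′ end, their centres 53 bp upstream and 23 bp downstream of it, and no other protein-coding gene starts within 3 kb of either. In replicate 1 they were as strong as the median member, and in replicate 2 both lay below the lower quartile of the members, which was 73. The score of Cox6b1, the broad partner of Cox6b2, was 143 in replicate 1 and 95 in replicate 2, and that of Cox7a2, the partner of Cox7a1, was 149 and 85. Among the muscle markers Ckm, which encodes muscle creatine kinase, had 143 and 82 in a peak centred 895 bp downstream of its start. Myl2 had 100 and 56, and Tnnt3 had 91 and 23. Myh7 and Ttn had a replicate 1 peak only, of scores 78 and 52, while Myh6, Actc1, Acta1, Tnnt2 and Mb had none. Of the testis markers, 8 of 10 had no promoter peak, Zpbp had 146 and 71 in a peak centred 477 bp downstream of its start, and Odf1 had a replicate 1 score of 46.

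The isoforms also differed in the CpG content of their starts. In the 250 bp on either side of the gene's 5′ end, the observed over expected CpG ratio was 0.62 to 1.05 for the 7 broad isoforms and 0.16 to 0.49 for the 8 tissue-restricted ones, with no overlap. Cox7a1, at 0.31, and Cox6b2, at 0.39, were within the range of the tissue-restricted genes. The median was 0.78 over the 93 members, 0.59 over all protein-coding genes and 0.77 over those with a shared promoter peak. The part of each shared peak upstream of the gene's 5′ end is printed for a pair of broad and a pair of tissue-restricted isoforms, to show the difference in CpG content. Each is on the strand of the gene, read from the reference assembly GRCm38 (mm10) at chr7:30626152-30626265 (minus strand), chr19:7217617-7217745 (minus), chr7:4753095-4753145 (minus) and chr7:30184016-30184143 (plus), and capitals mark each CpG.
Cox6b1: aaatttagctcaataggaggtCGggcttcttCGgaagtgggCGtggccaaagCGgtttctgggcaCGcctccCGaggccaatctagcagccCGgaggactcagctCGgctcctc
Cox8a: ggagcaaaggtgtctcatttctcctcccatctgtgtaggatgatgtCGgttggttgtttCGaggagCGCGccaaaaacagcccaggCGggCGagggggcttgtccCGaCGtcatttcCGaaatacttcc
Cox6b2: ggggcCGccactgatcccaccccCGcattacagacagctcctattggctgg
Cox7a1: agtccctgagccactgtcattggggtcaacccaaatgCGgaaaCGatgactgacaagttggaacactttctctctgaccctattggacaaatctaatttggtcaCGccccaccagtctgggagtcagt
The stretch of Cox6b1 holds 8 CpG in 114 bp and that of Cox8a 9 in 129 bp, whereas that of Cox7a1 holds 3 in 128 bp and that of Cox6b2 holds 2 in 51 bp. Cox7a1 was the only one of these 4 with a match to the NFY motif in its peak.

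The peaks of the members lay close to the start. The centre of the strongest shared peak was within 100 bp of the nearest annotated start of the gene at 76 of 87 members (87.4%), against 67.2% of all genes with such a peak, and the median distance was 34 bp against 59 bp. Counting any shared peak of the gene and not just the strongest, 79 of the 87 members had one within 100 bp of a start. No value over all genes stands beside that count, since the 67.2% is for the strongest peak. The centre was upstream of the start at 73.6% of the members and 72.0% of all genes. The members had fewer promoter peaks per gene, with a median of 2 in replicate 1 and 1 in replicate 2 against 3 and 2, and the median number of shared peaks outside promoters within 50 kb of the gene was 4, the same as for all genes with a shared promoter peak.

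**Figure D3:**
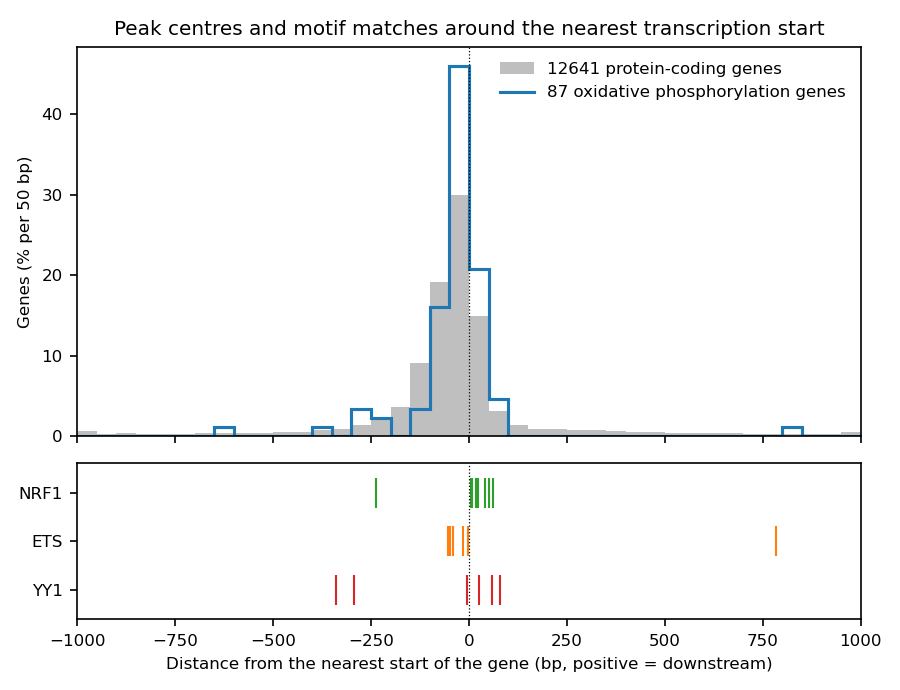
Upper panel: share of genes (vertical axis, % per 50 bp) by distance of the centre of the strongest shared promoter peak from the gene's nearest transcription start (horizontal axis, bp, positive downstream), for the 87 members (blue line) and all 12641 genes with such a peak (grey), with the few centres beyond the axis counted in the outermost bins. Lower panel: positions of the members' motif matches on the same axis; of the 8 NRF1 matches, 7 lie just downstream of the start and 1 lies 238 bp upstream.

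For some members the strongest shared peak was not at the outermost start. These genes were picked after their values were seen. The shared peak lay 2859 bp inside Atp5d, 2739 bp inside Cox7a2l and 1201 bp inside Atp5g2, measured from the gene's 5′ end, in each case near another annotated start of the same gene. With only the 5′ end counted, Atp5d and Cox7a2l had no shared promoter peak. The outermost start of Atp5d lay in a replicate 1 peak of score 66, at chr10:80138596-80138745, and that of Cox7a2l had no peak within 1 kb in either list. Near the outermost start of Atp5g2 there were replicate 1 peaks of scores 39 to 45 upstream and a shared peak of 117 and 33 downstream. Ndufa13, a membrane arm subunit of complex I with a single annotated start, was a different case. Its strongest shared peak, at chr8:69901676-69901825 with scores of 150 and 90, was centred 807 bp downstream of the start and 433 bp from that of Tssk6, a kinase gene that overlaps Ndufa13 on the opposite strand. Another shared peak, with scores of 148 and 92, was centred 693 bp from the start of Ndufa13, and the only peak at its own start, at chr8:69902396-69902545, was in replicate 1 alone with a score of 104.

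Many of these promoters face that of another gene. A protein-coding gene on the opposite strand, running away from the member and starting within 1 kb of it, was found at 34 of 93 members (36.6%), against 11.1% of all genes and 17.8% of those with a shared promoter peak. This is a property of the annotation and not of the libraries. All 34 had a shared promoter peak, as did 93.3% of all genes with such a neighbour. By complex the count was 14 of 36 in complex I, 4 of 8 among its assembly factors, 3 of 4 in complex II, 4 of 8 in complex III, 7 of 17 in complex V, and 2 of 20 in complex IV. At such a pair the peak cannot be assigned to 1 of the genes. The centre of the strongest shared peak was nearer to a start of another gene than to any of its own at 11 members (12.6%), against 10.2% of all genes, for example at Uqcrh, where Lrrc41 starts 32 bp from the centre, and at Ndufb11, where Rbm10 starts 46 bp from it.

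Atp5j, a peripheral stalk subunit of the ATP synthase, faces Gabpa, which encodes the DNA-binding subunit of GABP, with starts 93 bp apart. The peak they share scored 149 in replicate 1 and 95 in replicate 2. Sdhd faces Timm8b, which encodes a chaperone of mitochondrial protein import, with starts 98 bp apart and scores of 147 and 82. Further pairs with genes of mitochondrial or cytosolic translation, named after the list of neighbours was seen, are Ndufs6 with Mrpl36, 51 bp apart, Ndufa7 with Rps28, 10 bp apart, and Ndufs1 with Eef1b2, 3 bp apart. The whole stretch between the starts of Sdhd and Timm8b, chr9:50603813-50603909 of GRCm38, is printed on the strand of Sdhd as an example of a short gap between divergent starts. Capitals mark a match to the ETS motif with its last base free.
Sdhd and Timm8b: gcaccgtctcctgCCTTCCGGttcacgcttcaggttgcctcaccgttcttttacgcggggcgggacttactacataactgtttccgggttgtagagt
It is 97 bp long with 8 CpG, and holds no match to the exact NRF1, ETS or YY1 motifs defined next.

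Sequence motifs were counted as exact matches on either strand in the 150 bp replicate 1 window of the strongest shared peak, 1 window per gene. A match is a run of letters and does not show that a factor was bound. The NRF1 motif, CGCATGCG, was present in 8 of 87 members (9.2%), against 2.12% of all 12641 genes with a shared promoter peak. The YY1 motif, written AAGATGGCG, was present in 5 (5.75%) against 2.1%. The ETS motif, which is CCGGAAGT and is the type that GABP recognises, was present in 6 (6.9%) against 6.72%, so its share in the members was that of promoters at large. With 1 base of each motif free, the shares rose to 26 members (29.9%) against 12.2% for NRF1, 10 (11.5%) against 3.48% for YY1 and 19 (21.8%) against 14.9% for ETS. At least 1 of these relaxed motifs was present in 47 of the 87 members (54%), against 27.7% of all genes. The relaxed NRF1 motif matched 9 of 17 genes of complex V, 4 of 8 of complex III, 2 of 4 of complex II, 3 of 14 of complex IV, 7 of 36 of complex I and 1 of its 8 assembly factors.

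Of the other promoter motifs, KLF/SP, NFY and the E-box had lower shares in the members than in all genes. KLF/SP, spelled GGGGCGGGG, matched 6 members (6.9%) against 16.7% of all genes. NFY, which is CCAAT followed by CA, GA, CG or GG, matched 10 (11.5%) against 19.3%, and the E-box, spelled CACGTG, matched 2 (2.3%) against 7.35%. The median GC content of the windows was 62.7% in the members and 65.3% in all genes. The CRE, TGACGTCA, matched 3 members against a background of 2.86%, and ZNF143, written ACTACAANT with N for any base, matched 3 against 1.87%. TATA, searched as TATAAA, matched 2 against 1.93%. The palindrome CTCGCGAG matched 1 member against 1.56%, and ERR, spelled CAAGGTCA, which nuclear receptors of that family recognise, matched 1, Atp5g3, against 0.372%. Of the motifs of myeloid factors, PU.1-type ETS (GAGGAAGT) matched 2 members against 2.58% of all genes, C/EBP (spelled TTNCGCAA) matched 1 against 0.949%, AP-1, read as TGANTCA, matched 1 against 2.57%, and RUNX, which is TGTGGTTT, matched 0 against 0.641%. Counts of 3 or fewer give no order. The relaxed forms contain the exact ones, and the exact ETS and the PU.1-type motifs have their last bases, GGAAGT, in common.

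**Figure D4:**
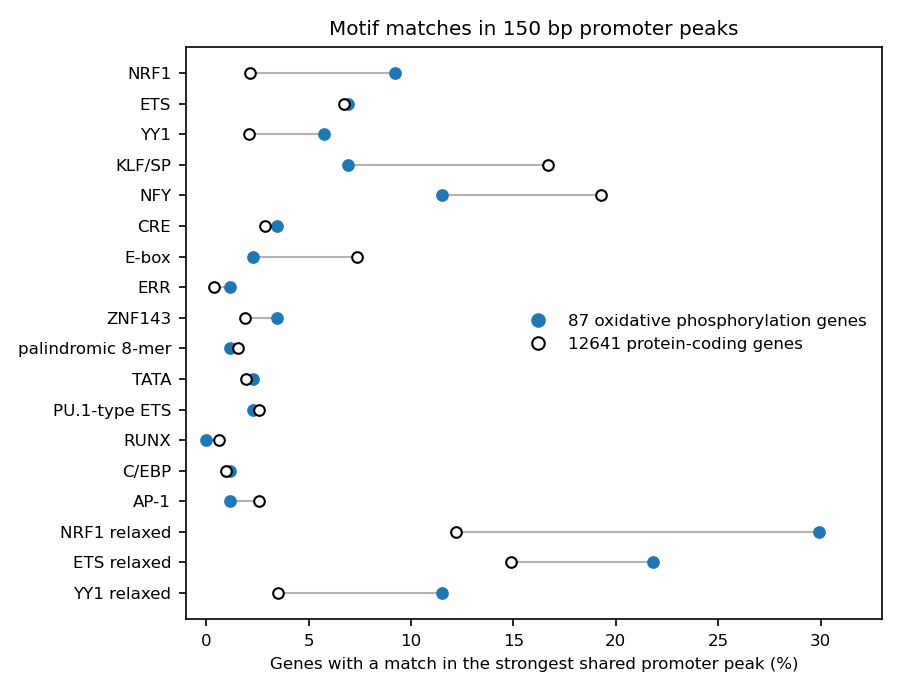
Share of genes (horizontal axis, %) with a match to each motif in the 150 bp window of the strongest shared promoter peak, for the 87 members (blue) and all 12641 genes with such a peak (open); the palindromic 8-mer is the motif of that kind named in the text, and relaxed motifs have 1 base free. The members lie to the right for NRF1, at 9.2% against 2.12%, and YY1, at 5.75% against 2.1%, and to the left for KLF/SP, at 6.9% against 16.7%.

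The 8 NRF1 matches are printed with their flanks, 30 bases each on the strand of the gene, because most sat on the same side of the start. Of the 8, 7 (87.5%) were centred 4 to 62 bp downstream of the annotated start nearest to the peak. Over all genes, 25.4% of the 279 matches were downstream. With 1 base free, 17 of 31 matches in members (54.8%) were downstream, against 27% of 1805. The genes encode subunits of complexes I, III, IV and V and the complex I assembly factor Ndufaf5. Capitals mark the match, and the assembly is GRCm38.
Atp5g2 (c ring), chr15:102671070-102671099: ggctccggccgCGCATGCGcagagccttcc
Atp5k (membrane part of complex V), chr5:108434430-108434459: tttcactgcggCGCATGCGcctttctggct
Atp5l (membrane part of complex V), chr9:44920965-44920994: aaaaccaataaCGCATGCGcatttccccca
Cox6c (complex IV), chr15:35938169-35938198: atcgactcttgCGCATGCGtgctgctggaa
Ndufa8 (membrane arm of complex I), chr2:36049329-36049358: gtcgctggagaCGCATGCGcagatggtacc
Ndufaf5 (assembly factor), chr2:140170652-140170681: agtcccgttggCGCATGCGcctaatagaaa
Uqcr11 (small subunit of complex III), chr10:80406808-80406837: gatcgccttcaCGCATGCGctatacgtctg
Uqcrc1 (core protein of complex III), chr9:108936668-108936697: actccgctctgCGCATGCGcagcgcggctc
Atp5l is the exception, with its match 238 bp upstream. The members with a match were not the strongest promoters: their replicate 2 scores were 95 at Atp5g2, 92 at Atp5k, 90 at Ndufa8, 79 at Ndufaf5, 75 at Atp5l, 73 at Uqcr11, 71 at Uqcrc1 and 68 at Cox6c, on both sides of the members' median of 83. The peak of Uqcr11 is the only one that held both an exact NRF1 and an exact ETS match, the latter centred 54 bp upstream of the start.

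The YY1 matches lay over the start codon in 4 of the 5 members that had one. In Atp5j2, Ndufa9, Ndufc1 and Ndufs4 the match ran in the direction of the gene, and its ATG overlapped an annotated start codon of that gene. Of all 6 matches in members 4 (66.7%) overlapped a start codon, against 35.9% of the 273 matches over all genes. With 1 base free, 7 of 11 (63.6%) did, against 30.8% of 451. The windows are printed on the strand of the gene with the match in capitals, to show the ATG inside it.
Atp5j2 (membrane part of complex V), chr5:145191500-145191529: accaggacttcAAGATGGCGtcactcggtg
Ndufa9 (matrix arm of complex I), chr6:126849097-126849126: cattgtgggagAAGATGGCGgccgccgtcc
Ndufc1 (membrane arm of complex I), chr3:51408915-51408944: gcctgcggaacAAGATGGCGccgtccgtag
Ndufs4 (matrix arm of complex I), chr13:114388041-114388070: ttgcctacaggAAGATGGCGgcggtctcaa
The fifth gene, Uqcrh, the hinge protein gene of complex III, had both of its matches in the opposite direction, centred 293 and 339 bp upstream of its start, in the peak that is nearer to the start of Lrrc41. The 4 genes with a match over the start codon scored 131 to 144 in replicate 1 and 57 to 78 in replicate 2, all below the members' medians of 146 and 83.

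By mean rank the X-linked members had the weakest shared peaks of their complexes. Ndufa1, Ndufb11 and Cox7b scored 129, 138 and 133 in replicate 1 and 49, 51 and 55 in replicate 2, where the autosomal members had a median of 83.5. The only autosomal member below 55 in replicate 2 was Ndufaf1, with 48. The same difference ran through the chromosome as a whole: the median replicate 2 score was 55 over the 332 genes on X with a shared promoter peak and 76 over the 12309 on autosomes, and in replicate 1 it was 142 and 145. The number of X chromosomes per cell is not in the labels, and its part in these scores was not tested.

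Genes that serve the same pathway but carry other names were described from a list of 51. It holds cytochrome c, the complex III subunit gene Cyc1, assembly factors of complexes I to V, and regulators of mitochondrial genes. A shared promoter peak was present at 49 of 51, a share of 96.1% beside the 58.2% of all genes, with median scores of 148 and 84. The cytochrome c gene Cycs scored 146 and 106, and its peak holds an exact NRF1 match. Among the regulators, Esrra, an orphan nuclear receptor gene, scored 150 and 112, Gabpa 149 and 95, Yy1 150 and 94, Nrf1 144 and 90, and Tfam, which encodes a packaging factor of mitochondrial DNA, 141 and 80. The family of PGC-1 coactivators was uneven. Ppargc1a, known for raising mitochondrial gene expression in muscle and brown fat, had only a replicate 1 promoter peak, of score 87, Ppargc1b had 126 and 50, and Pprc1, the third member, had 150 and 78. The other gene without a shared promoter peak was Sdhaf1, an assembly factor of complex II, with a replicate 1 score of 95.

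Other large machines encoded by housekeeping genes gave a similar picture. Of 83 cytosolic ribosomal protein genes 80 had a shared promoter peak (96.4%), with median scores of 148 and 88.5. The proteasome genes were 49 genes chosen by symbol, from Psma to Psmg, so some may not encode proteasome subunits. Of these, 46 had a shared promoter peak (93.9%), with 147 and 84.5. The oxidative phosphorylation genes were thus at a similar level by share, and at 146 and 83 by median score. Their share of head-to-head neighbours, 36.6%, was higher than the 18.1% of ribosomal and the 24.5% of proteasome genes, values for which no test was made.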

How the data were processed

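Peak and hotspot lists were used as deposited, on assembly mm10 per the deposited text files, which tie 1 alignment and 1 list of each kind to each biological replicate. The deposited peak score is a whole number. Its definition, the peak caller and the read depth were not given in the sources used here. It was used only within its own list or to describe a peak. The deposited hotspot value is −log10 q, from a q of 0.05. The labels alone say that the replicates are separate biological samples.

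Repeated windows were kept once, and 236109 and 67395 peaks on autosomes and X were analysed. Starts came from GENCODE M21. Python 3.11.15, numpy 2.4.6 and scipy 1.17.1 were used, and the scripts were tested on simulated data. Named genes are all members without a shared peak, all isoform partners, complex II, the extremes of each complex, members with an NRF1 or YY1 match, pathway neighbours, and those said to be chosen afterwards. Atp5o has 2 gene records and was counted once. Ndufa4 and Ndufa4l2 were placed in complex IV. The members, the gene lists and the 15 motifs were chosen with earlier results of these data known. Alternatives were other promoter windows and starts, stricter overlap, higher scores, equal list lengths, each list alone, and other motif windows. All other members enter only as counts, medians and ranges, and some results are not reported here.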

Additional observations from a re-analysis of the deposited data

How the results depend on the processing

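Of 54 values recomputed under other settings, 43 stayed within 1.5 times the count or close to the median given above, and 11 moved by more. The number of members with a shared promoter peak was 84 to 89 under every setting tried. With the replicate 2 list alone it was 87 (93.5%, against 58.7% of all genes). With the replicate 1 list alone it was 89 (95.7%, against 71.1%). Under the settings that used both lists, the share of all genes ran from 51.3% to 61.9%. Among the members that are not tissue-restricted, Atp5d and Cox7a2l lost their shared peak with 5′ ends only, and Ndufa13 with a 500 bp window. With a window of 2.5 kb, the members without a promoter peak fell from 4 to 2 and the tissue-restricted isoforms with a shared one rose from 2 to 4. Cox6a2 and Ndufa4l2 then had a shared peak and Cox7b2 one in replicate 1 alone, which left Cox8b and Cox8c without any. Members with a peak in replicate 1 alone numbered 2, but 4 with 5′ ends only, 1 in the upper part of each list by score and 0 at equal list length. Motif counts followed the window and the letters. NRF1 matches numbered 4 in the central 100 bp (1.39% of all genes) and 26 with 1 base free. ETS matches numbered 19 with 1 base free. YY1 matches numbered 3 in the central 100 bp (1.31% of all genes), 12 in 300 bp (4.19%) and 10 with 1 base free. Head-to-head neighbours within 500 bp were found at 33 members (10.2% of all genes). Depth is unknown, so a missing replicate 2 peak does not show closed chromatin.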

Other observations

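Processed copies of these genes, which the annotation lists as pseudogenes and which were no part of the 93, mostly lacked peaks. Of 12 processed pseudogenes of the same families 8 had no peak within 1 kb of their start, 3 had one in replicate 1 alone, and 1, Ndufs6b, had a shared peak with scores of 105 and 43, with no protein-coding start within 2 kb. A noncoding gene of the family, Ndufb1-ps, had a peak of 146 in replicate 1 alone, beside the start of Cpsf2.

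The ribosomal and proteasome genes without a shared promoter peak were also mostly paralogs known for restricted use: Rpl10l, Rpl39l and Rpl3l among the first, and Psma8, Psmb9 and Psmb11 among the second. The mitochondrial chromosome, which encodes further subunits of complexes I, III, IV and V, held 22 peaks in replicate 1 with scores of 124 to 150 and 10 in replicate 2 with scores of 117 to 145.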
